A study of Mus musculus with 4 samples.

Results

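Lyz1 and Lyz2 are the neighbouring mouse genes of lysozyme, an enzyme that cuts the peptidoglycan of bacterial walls. They were taken by symbol from an expression table of 21523 Ensembl gene identifiers and make up 2 of its genes, and both were measured in all 4 libraries. They were selected on their lower FPKM with 1,5-AG than in control, so their change is given as a description, without a test. The cells were RAW264.7, a macrophage-like line that arose from a virus-induced tumour in a mouse, grown in DMEM with fetal bovine serum. In the first group, 2 libraries came from cells given 0.5 mM 1,5-anhydroglucitol (1,5-AG, a polyol that resembles glucose but lacks a hydroxyl group) for 24 h. In the control group, 2 libraries came from cells with no treatment, and a culture time for them is not given in the labels. All 4 libraries thus come from 1 tumour line without genetic change between groups, and the labels do not say whether libraries of a group were separate cultures. Spread between libraries, and any p-value built on it, may therefore be technical.

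Lysozyme hydrolyses the bond between the alternating sugars of peptidoglycan, which kills sensitive bacteria and releases fragments that innate immune receptors detect. Mice carry a duplicated gene where humans have a single one. Lyz2 encodes the M-type enzyme of macrophages and neutrophils, whose promoter is used to drive Cre in myeloid cells, and Lyz1 encodes the P-type enzyme best known from Paneth cells of the small intestine. Both proteins enter the secretory pathway with a signal peptide and are stored in lysosomes or granules or released.

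Both genes lie on the minus strand of chromosome 10 (mm10, GENCODE release M21), Lyz2 (ENSMUSG00000069516) at chr10:117277331-117282321 and Lyz1 (ENSMUSG00000069515) at chr10:117287797-117292868, with 5475 bases between them. Each has 4 exons and a coding sequence of 447 bases including the stop codon, split between the exons at the same places. The first 240 bases of each coding sequence are shown because how far fragments can be assigned to one gene or the other rests on the bases that differ, which are in capitals.
Lyz1 coding start: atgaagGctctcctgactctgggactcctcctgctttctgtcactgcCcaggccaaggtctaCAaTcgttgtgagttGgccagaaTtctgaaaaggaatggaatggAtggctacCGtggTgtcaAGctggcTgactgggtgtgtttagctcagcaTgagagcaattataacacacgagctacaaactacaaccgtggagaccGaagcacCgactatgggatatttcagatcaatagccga
Lyz2 coding start: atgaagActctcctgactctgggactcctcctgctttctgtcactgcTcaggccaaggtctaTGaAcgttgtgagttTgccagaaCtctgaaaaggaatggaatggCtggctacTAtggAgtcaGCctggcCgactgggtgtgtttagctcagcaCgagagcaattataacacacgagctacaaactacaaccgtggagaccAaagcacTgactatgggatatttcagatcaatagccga
The stretch holds 17 of the differences. The whole coding sequences differed at 22 of 447 aligned bases (95.1% identity), without gaps, and the longest run without a difference was 118 bases. Over the whole transcripts, 1263 bases for Lyz1 and 1316 for Lyz2, the identity was 96.0% of 1262 aligned bases. The 3′ UTRs, 786 and 790 bases long, were as alike as the coding parts (96.3%).

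A fragment can be placed by its sequence alone where it covers a difference. Of the 50-base windows of the Lyz1 transcript, 16.1% occurred unchanged in Lyz2. This share was 6.22% for 75-base windows and 2.06% for 100-base windows, and 0 of the 1114 windows of 150 bases were shared. No 50-base window of either transcript occurred in transcripts of any other gene in the annotation. Neither the read length nor the handling of reads that match both genes is stated in the labels, and the split between Lyz1 and Lyz2 carries an uncertainty that the replicate spread does not show. The sum of both genes does not depend on that split except for reads that were dropped or counted for both genes.

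**Figure D1:**
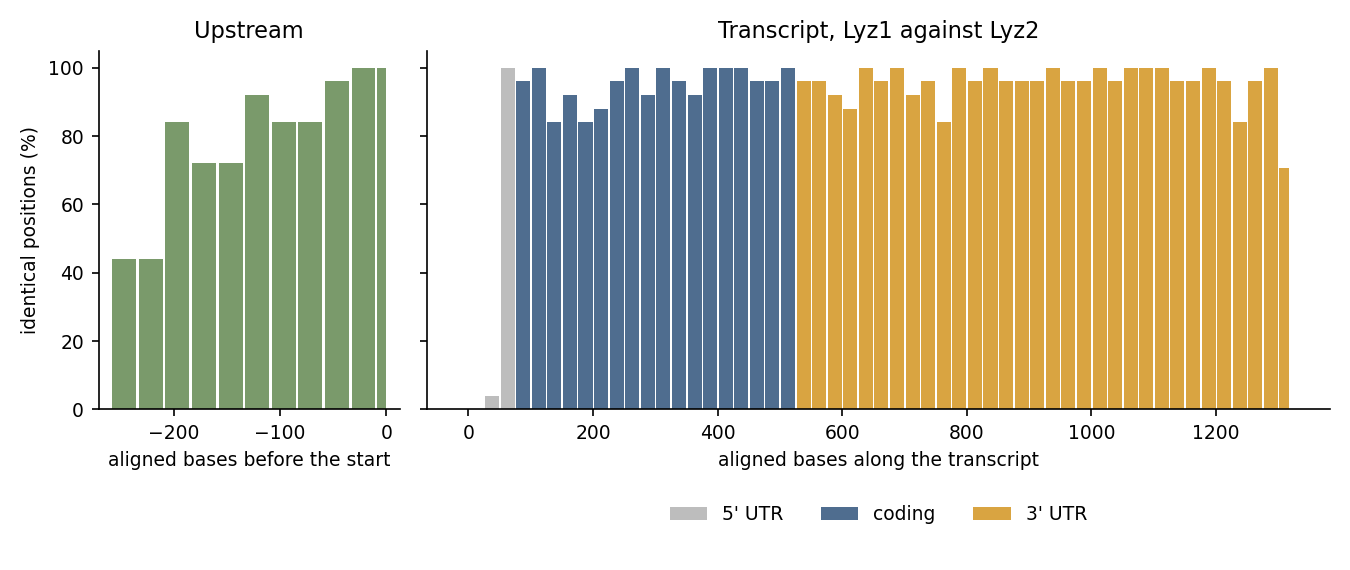
Share of identical positions (%) between Lyz1 and Lyz2 in successive windows of 25 alignment columns (the last one shorter), over the 250 bases before the RefSeq start (left) and along the transcripts (right, coloured by 5′ UTR, coding sequence and 3′ UTR of Lyz2). Identity falls with distance upstream and stays at 84% or more along the coding sequence and most of the 3′ UTR; the low windows at the left end of the transcript are the 49 bases by which the Lyz2 transcript starts earlier.

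The upstream regions of the paired genes are shown for comparison, with bases that differ or have no partner in capitals. Whether these regions have a part in the decrease was not tested. They span bases 250 to 50 before the RefSeq start (GRCm38.p6, minus strand), chr10:117292918-117293118 for Lyz1 and chr10:117282322-117282522 for Lyz2. The 49 bases nearest to the start are left out of the print because GENCODE places them in the Lyz2 transcript.
Lyz1 upstream: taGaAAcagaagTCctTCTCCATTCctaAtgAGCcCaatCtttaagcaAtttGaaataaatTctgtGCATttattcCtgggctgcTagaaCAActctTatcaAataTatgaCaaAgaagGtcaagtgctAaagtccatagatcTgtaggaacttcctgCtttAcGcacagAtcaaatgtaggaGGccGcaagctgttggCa
Lyz2 upstream: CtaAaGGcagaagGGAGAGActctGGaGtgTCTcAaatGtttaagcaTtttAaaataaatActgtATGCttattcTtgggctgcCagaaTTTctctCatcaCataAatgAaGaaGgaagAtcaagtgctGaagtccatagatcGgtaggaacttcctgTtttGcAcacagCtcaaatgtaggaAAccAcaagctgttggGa
In the 100 bases next to the start, 92.0% of aligned bases were identical, with no gap, and the 50 bases nearest to it held no difference. From 101 to 250 bases the identity was 78.0%, with 18 bases that had no partner. Both genes hold the ETS-type doublet GGAANTTCC starting 103 bases before the start, in the run ggaacttcc. It occurs in 0.844% of the 27025 RefSeq promoters searched over the same 250 bases. The TATA-like run TTAAATA starts 28 bases before the start in both and occurs in 4.37% of promoters. The ETS core GGAA, 2 copies of which make up the doublet, was found 4 times for Lyz1 and 5 times for Lyz2 on both strands, and 93.4% of promoters hold it. The C/EBP-type motif TTGCNNAA matched once in Lyz1 and not in Lyz2 (9.55% of promoters), and the runt motif TGTGGT matched once in Lyz2 and not in Lyz1 (14.2%). The E-box CANNTG matched at 2 places in Lyz1 and 3 in Lyz2 (66.0% of promoters), and CCAAT once in Lyz1 (34.5%). The motifs GAGGAAGT (PU.1), TGANTCA (AP-1), TATAAA (the TATA box) and GGGTGTGG (KLF) had no exact match in either window, and occur in 2.44%, 6.87%, 13.0% and 3.19% of promoters. Read on the other strand, the stretch at the ETS doublet differs from GAGGAAGT only in its first base, in both genes. The lack of an exact match thus does not show that a PU.1-type site is absent.

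Lyz2 was lower in both 1,5-AG libraries than in both control libraries. Its level was 3095 and 3001 FPKM (fragments scaled by exon length and by library depth, as the authors deposited) with 1,5-AG, against 4554 and 4422 FPKM in control. The groups did not overlap: the gap of 1327 FPKM between the nearest libraries was wider than the differences of 94.6 FPKM between the 1,5-AG libraries and 131 FPKM between the control libraries. The means were 3048 ± 66.9 FPKM with 1,5-AG and 4488 ± 92.9 FPKM in control (SD, n = 2 each), so that Lyz2 was 32.1% lower with 1,5-AG, or -0.56 as a log2 difference of log2(FPKM + 1).

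Lyz1 moved in the same way at a lower level. It had 428 and 405 FPKM with 1,5-AG, against 633 and 624 FPKM in control. Again all control libraries lay above both 1,5-AG libraries, and the libraries within a group differed by 23.1 FPKM with 1,5-AG and by 8.72 FPKM in control. The means of 417 ± 16.3 FPKM with 1,5-AG and 628 ± 6.16 FPKM in control (SD, n = 2 each) make Lyz1 33.6% lower with 1,5-AG, a log2 difference of -0.59. Of the 11120 genes with a mean of at least 1 FPKM, 25.4% were lower with 1,5-AG in this same sense that the groups did not overlap, so the separation by itself is common in these libraries.

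**Figure D2:**
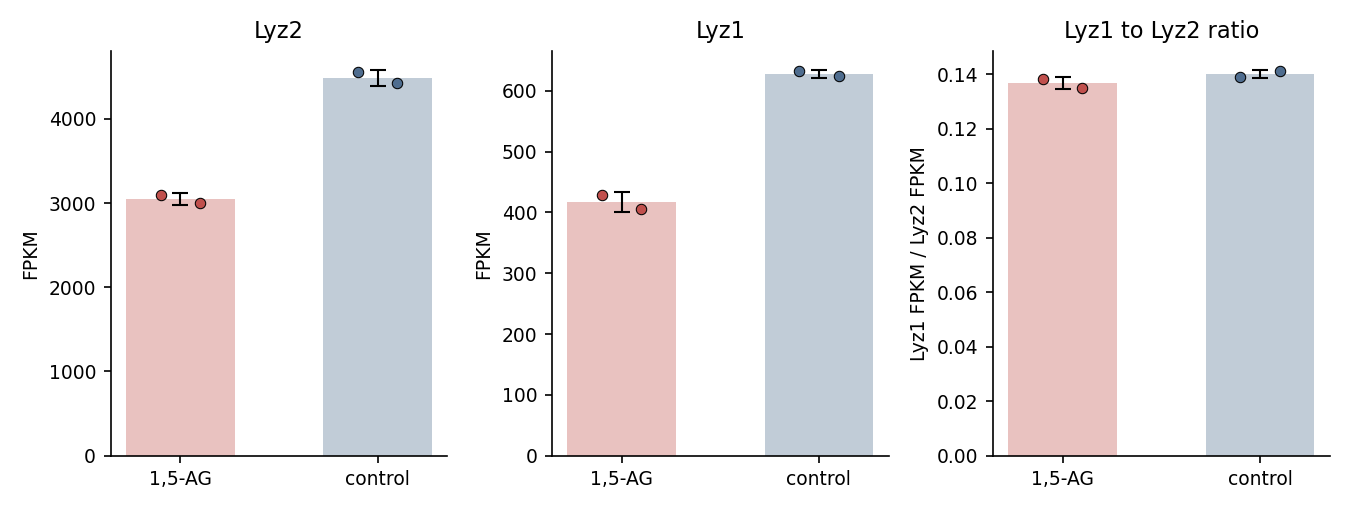
FPKM of Lyz2 (left) and Lyz1 (middle) and the ratio of Lyz1 to Lyz2 FPKM (right) in each library (points), with group mean (bar) and SD (line, n = 2), for 1,5-AG and control. Both genes sit lower in both 1,5-AG libraries, at 3001 to 3095 FPKM against 4422 to 4554 FPKM for Lyz2, while the ratio stays between 0.135 and 0.141.

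In the deposited FPKM, the ratio between the genes changed far less than their levels. Lyz1 FPKM over Lyz2 FPKM was 0.138 and 0.135 with 1,5-AG and 0.139 and 0.141 in control. The ratio was slightly lower with 1,5-AG, but the nearest libraries of the groups lay 0.000513 apart, against 0.00333 between the 1,5-AG libraries and 0.00216 between the control libraries. The difference of -0.034 in the log2 ratio compares with a pooled SD of 0.0208 between libraries of a group. It was -0.0164 without 1,5-AG replicate 2 and -0.0516 without 1,5-AG replicate 1. Median-ratio scaling left it at -0.034, as any common factor for a library must. Under quantile normalization, which ties values to ranks, it was -0.266, with -0.369 for Lyz2 and -0.634 for Lyz1. The near-constant ratio thus holds for FPKM as deposited and not under quantile normalization. Put as levels, Lyz2 stood 7.23-fold and 7.40-fold above Lyz1 with 1,5-AG and 7.20-fold and 7.09-fold above it in control.

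The number of fragments behind these values was large. Each FPKM was multiplied by exon length and divided by the value of a fragment, which was inferred for each library from the deposited values. Lyz2 came out at 59540 and 59680 fragments with 1,5-AG and at 90870 and 94446 in control. Lyz1 had 7908 and 7736 fragments with 1,5-AG and 12114 and 12786 in control. Of the fragments of both genes together, Lyz1 made up 11.7% (95% exact binomial interval 11.5% to 12.0%) and 11.5% (11.2% to 11.7%) with 1,5-AG, and 11.8% (11.6% to 12.0%) and 11.9% (11.7% to 12.1%) in control. Between the groups, the only intervals that did not overlap were those of the second 1,5-AG library and the second control library. The former ended at 11.718%, just below the 11.730% at which the latter began. No molecular identifiers are recorded, so that copies of 1 molecule can count more than once and the intervals cover counting error only.

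Lysozyme messages were a visible part of the whole library. Lyz2 took 0.408% and 0.395% of all gene-assigned fragments with 1,5-AG, against 0.600% and 0.582% in control. With Lyz1 the share was 0.462% and 0.446% with 1,5-AG, against 0.680% and 0.661% in control. Such shares, like FPKM, are relative to everything else in the library, and fewer cells expressing a gene cannot be told apart from less RNA per cell.

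By FPKM, Lyz2 ranked 6th in both 1,5-AG libraries and 3rd in both control libraries. Among 13620 protein-coding genes outside the mitochondrial genome it was 2nd with 1,5-AG and 1st in control. The gene that stood above it with 1,5-AG was Eef1a1, a translation elongation factor, with 4148 and 4274 FPKM in the 1,5-AG libraries and 4230 and 4361 FPKM in the control libraries. The mitochondrial genes mt-Nd1 and mt-Cytb also lay above Lyz2 with 1,5-AG and below it in control. In mt-Cytb, a subunit of respiratory complex III, the values were 3446 and 3484 FPKM with 1,5-AG and 3697 and 3739 FPKM in control, and the change did not pass the test (log2 difference -0.10, limma adjusted p = 0.181). Lyz1 ranked 84th and 91st of all rows with 1,5-AG and 45th in both control libraries.

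The genes next to Lyz1 in overall rank kept their levels more closely. Cd14, a co-receptor for lipopolysaccharide, had 548 and 518 FPKM with 1,5-AG and 536 and 501 FPKM in control, with overlapping groups. The ribosomal protein gene Rps16 had 551 and 526 FPKM with 1,5-AG and 529 and 494 FPKM in control, also overlapping. Tubb5, a beta-tubulin, and Ctsz, a lysosomal protease, were higher with 1,5-AG by 0.08 and 0.16 (log2) without passing the test (limma adjusted p = 0.262 and 0.136).

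Among abundant genes, decreases of this size were rare. Of 88 other genes with a mean of at least 400 FPKM, 0 had a log2 difference as low as that of Lyz2. Their log2 differences ran from -0.24, for the cystatin gene Cst3, to 1.20, for the carbonic anhydrase gene Car2, with a median of 0.035. Of 475 other genes with a mean of at least 100 FPKM, 2 had a log2 difference at or below that of Lyz2, the intermediate filament gene Vim (-0.62) and Ahnak, the gene of a very large scaffold protein. Among all 11120 genes, whose weaker members scatter more widely, Lyz1 ranked 100th and Lyz2 122nd by log2 decrease. In FPKM, Lyz2 had the widest decrease of all tested genes, 1440 FPKM, and Lyz1 ranked 5th, 211 FPKM. Both genes were selected on their decrease, so these places are a description and not a test.

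**Figure D3:**
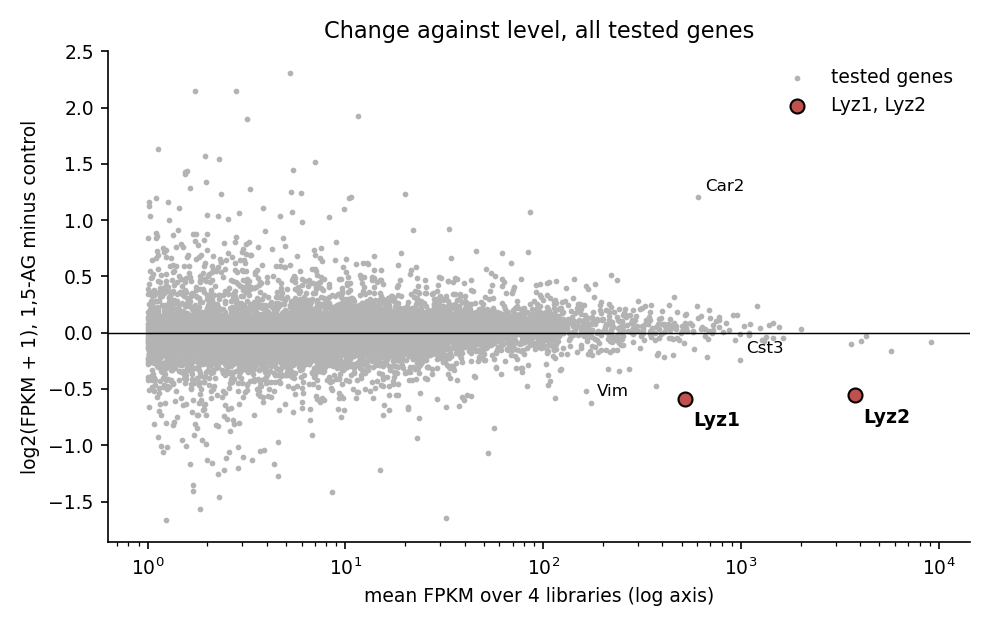
Log2 difference of log2(FPKM + 1), 1,5-AG minus control, against mean FPKM over the 4 libraries (log axis) for the 11120 tested genes (grey), with Lyz1 and Lyz2 in red. The 88 other genes with a mean of at least 400 FPKM run from -0.24 (Cst3) to 1.20 (Car2), and the lysozyme genes lie below them at -0.59 and -0.56.

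Genes with the profile most like that of Lyz2 were searched over the 4 libraries, by the Euclidean distance between mean-centred log2(FPKM + 1) values. Lyz1 ranked 5th of 11119 genes, at a distance of 0.0441, against a median of 0.573 over all of them. Closest was Bcar3, the gene of a signalling adaptor, at 0.0176, with 2.80 and 2.69 FPKM with 1,5-AG and 4.52 and 4.38 FPKM in control. Next came Wdyhv1 (0.0294), which codes for a glutamine amidase, Myo1f (0.0401), a myosin of leukocytes, and Gm37261 (0.0432), with Clec4a3 (0.0450), a C-type lectin receptor of myeloid cells, after Lyz1. These genes are expressed far below the lysozymes: Myo1f, the highest of them, had 23.5 and 22.2 FPKM with 1,5-AG and 35.3 and 34.4 FPKM in control. The likeness holds on the log2(FPKM + 1) scale, where the added 1 shrinks the change of weak genes. In plain FPKM, Wdyhv1 was 51.4% lower with 1,5-AG (mean 0.743 FPKM, against 1.53 FPKM in control), Bcar3 38.3%, Gm37261 36.8%, Myo1f 34.4% and Clec4a3 33.0%, against 32.1% for Lyz2. The likeness rests on 4 libraries in 2 groups. Lyz1 and Lyz2 were both selected on their decrease between these groups, so the closeness of Lyz1 follows in part from that choice.

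Genes around the lysozyme pair did not share its decrease. Within 500 kb, 9 other genes had a mean of at least 1 FPKM, and 0 of them passed the limma test, by which 1.46% of all tested genes passed. The groups did not overlap for 4 of the 9, against 49.6% of all tested genes. At an unadjusted p of 0.05 there were 3 of the 9, Cct2, Rab3ip and Frs2, against 18.2% of all tested genes. A further fit, voom on recovered fragments, called 0 of the 9, against 8.3% of all genes. The nearest expressed gene on one side, Yeats4, which reads histone acetylation, had 41.0 and 40.4 FPKM with 1,5-AG and 37.5 and 41.2 FPKM in control (log2 difference 0.049, SE 0.057). On the other side Cpsf6, an mRNA cleavage factor subunit, had 29.3 and 30.5 FPKM with 1,5-AG and 30.3 and 30.0 FPKM in control (-0.011, SE 0.043). In both the groups overlapped. Cct2, a subunit of the cytosolic chaperonin, had a log2 difference of 0.11, Frs2, an adaptor of growth factor receptors, -0.17, and Rab3ip, an exchange factor for Rab8, 0.28, with limma adjusted p from 0.193 to 0.257. Mdm2, the ubiquitin ligase of p53, stood at 0.020, Slc35e3 at -0.029, Nup107, a nuclear pore subunit, at 0.13 and the pseudogene Gm5781 at 0.034.

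**Figure D4:**
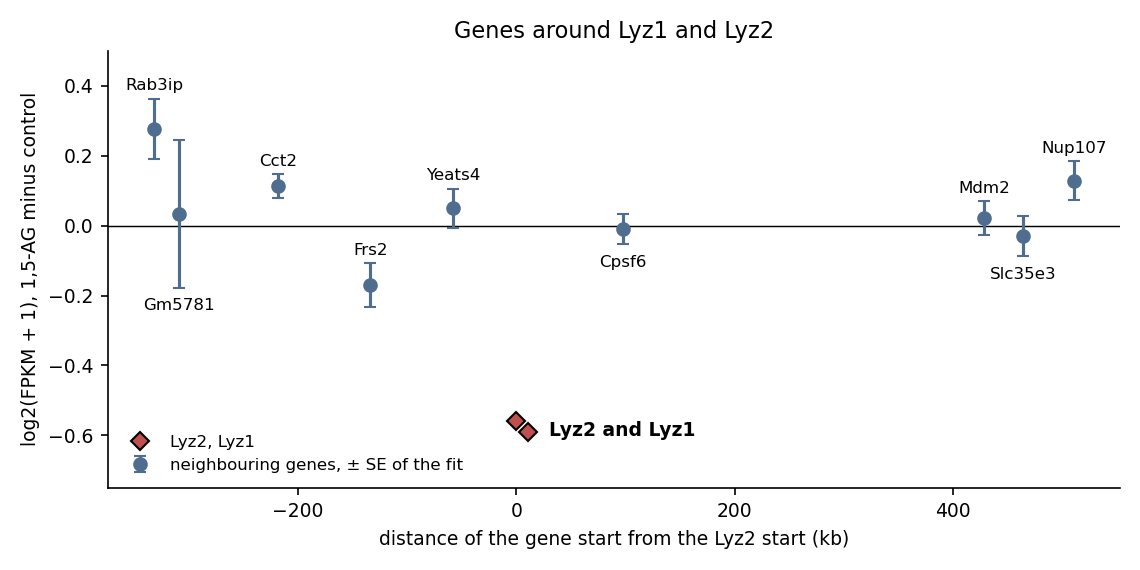
Log2 difference of log2(FPKM + 1), 1,5-AG minus control, against distance of each gene's start from the Lyz2 start (kb) for the 9 expressed neighbours (blue, with the SE of the limma fit) and for Lyz2 and Lyz1 (red). The neighbours lie between -0.17 and 0.28, and the lysozyme genes at -0.56 and -0.59.

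The 2 further lysozyme family genes that were measured were at or near 0. Of 8 further family genes listed, Lyzl4 and Spaca5, lysozyme-like genes of the testis and sperm, were in the table, and the other 6 were not analysed here. Lyzl4 had 0 fragments in both 1,5-AG libraries, and 1 and 0 in the control libraries. Spaca5 had 0 in both 1,5-AG libraries, and 2 and 1 in the control libraries. Neither entered the test.

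Macrophage markers were expressed, at unlike levels, and markers of other cell types were near 0. Of 6 macrophage markers 5 were measured. They summed to 758 and 767 FPKM with 1,5-AG and 807 and 809 FPKM in control. The part of this lower sum in the lysozyme decrease was not tested. Most of the sum came from Cd68 and Csf1r, while Itgam had 7.50 and 7.51 FPKM with 1,5-AG and 6.87 and 7.67 FPKM in control. The markers did not all move the same way. Log2 differences were -0.069 for Cd68, -0.11 for Csf1r and -0.32 for Adgre1, against 0.11 for Fcgr1 and 0.043 for Itgam. Neutrophils and Paneth cells also make lysozyme. Of 9 neutrophil markers 3 were measured, and they summed to 0.394 and 0.441 FPKM with 1,5-AG and 0.660 and 0.761 FPKM in control. Of 8 Paneth cell markers 2 were measured, at up to 2 fragments in any library. These levels are near 0 beside 405 FPKM or more of Lyz1. No alveolar epithelium marker had values in the expression table, and the sums of the T and B cell and fibroblast markers reached 0.231 and 0.0254 FPKM.

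Related genes were then read from 6 lists, 115 tested genes in all without Lyz1 and Lyz2, of which 3 rose and 3 fell (5.22%, against 1.46% of all genes tested, with 0.809% higher and 0.647% lower). Their median log2 difference was -0.0092, against -0.0025 over all tested genes. At an unadjusted p of 0.05, 23 of the 115 were higher and 25 lower, where 9.15% of all tested genes were higher and 9.04% lower. By voom 17 were higher and 19 lower, where 3.64% of all genes were higher and 4.66% lower. Positive differences made up 49.1% and negative ones 50.9% of all tested genes. The counts of each list are to be read against these shares. Each of these 6 calls ended when any 1 of the 4 libraries was left out, without a filter on low values and without the variance trend. The lists were drawn up with earlier results of these data known and are described by counts alone.

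Of 18 transcription factors of myeloid cells or of lysozyme promoters, 2 fell and 0 rose by limma. At an unadjusted p of 0.05 there were 3 higher and 2 lower, and voom called 2 higher and 2 lower, so that the list was not one-sided. Runx1, a runt-domain factor of blood cell development, had 4.46 and 4.69 FPKM with 1,5-AG and 6.67 and 6.82 FPKM in control (log2 difference -0.47, SE 0.061, limma adjusted p = 0.0441). Klf4, a zinc finger factor that promotes monocyte differentiation, had 5.12 and 4.12 FPKM with 1,5-AG and 8.98 and 8.23 FPKM in control (-0.78, SE 0.10, limma adjusted p = 0.0461). In both genes the groups did not overlap, and the Klf4 call also ended under quantile normalization (-0.76, limma adjusted p = 0.0549). Spi1, Cebpa and Cebpb were looked at outside the naming rule because PU.1 and the C/EBP factors are known to act on the Lyz2 gene. Spi1, which encodes PU.1, had 104 and 95.5 FPKM with 1,5-AG and 120 and 103 FPKM in control, with overlapping groups (-0.16, limma adjusted p = 0.395). Cebpa had 13.2 and 11.2 FPKM with 1,5-AG and 12.4 and 11.1 FPKM in control, and Cebpb 10.2 and 6.29 FPKM with 1,5-AG and 10.5 and 6.23 FPKM in control. For Cebpb the libraries of each group differed by more than the groups did.

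Lysozyme acts beside other enzymes that cut sugar chains in the lysosome, and of 27 such genes 0 passed the limma test in either direction. Of these, 23 had negative differences (85.2%, against 50.9% of all tested genes) and 4 positive ones, with a median of -0.11. At an unadjusted p of 0.05 there were 8 lower and 0 higher, and voom on recovered fragments called 5 lower and 0 higher. Gla, alpha-galactosidase A, had a log2 difference of -0.21 (limma adjusted p = 0.115).

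A further set was drawn up around the sensing and transport of lysozyme digestion products, though not every member is known to handle them. Of its genes, 12 were tested and 0 passed the limma test. At an unadjusted p of 0.05 there were 2 higher and 3 lower, and voom called 2 higher and 2 lower. Slc29a3, a lysosomal nucleoside transporter, had 3.98 and 4.08 FPKM with 1,5-AG and 5.63 and 5.39 FPKM in control (-0.37, limma adjusted p = 0.0779). Nlrp3, an inflammasome sensor, had 14.7 and 13.9 FPKM with 1,5-AG and 12.2 FPKM in both control libraries (0.22, limma adjusted p = 0.120). Of 6 tested antimicrobial protein genes of phagocytes 0 passed, with 0 higher and 1 lower at an unadjusted p of 0.05 and by voom. That gene was Mpeg1, the pore-forming perforin-2 of macrophages, with 201 and 208 FPKM with 1,5-AG and 221 and 240 FPKM in control (-0.17, limma adjusted p = 0.179). Acod1, which makes itaconate, had 0.26 (limma adjusted p = 0.415).

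Genes that carry secreted proteins such as lysozyme into the endoplasmic reticulum and form their disulfide bonds had mostly positive differences. Of 26 tested, 2 rose and 0 fell, 25 had a positive difference (96.2%, against 49.1% of all tested genes), and the median was 0.13. Voom called 8 higher and 0 lower, and 13 were higher and 0 lower at an unadjusted p of 0.05. Pdia4, a protein disulfide isomerase, had 126 and 123 FPKM with 1,5-AG and 101 and 103 FPKM in control (0.28, SE 0.035, limma adjusted p = 0.0421). Ero1l, the oxidase that recharges these isomerases, had 35.4 and 36.6 FPKM with 1,5-AG and 28.0 and 29.1 FPKM in control (0.32, SE 0.044, limma adjusted p = 0.0490). Both calls ended under quantile normalization, and that of Ero1l also with a pseudocount of 0.1.

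Of 26 tested macrophage and lysosome genes, the 5 measured macrophage markers among them, 1 rose and 1 fell, with a median of -0.089. There were 5 higher and 11 lower at an unadjusted p of 0.05, and 5 higher and 9 lower by voom. Ctsd, the lysosomal aspartic protease cathepsin D, had 208 and 211 FPKM with 1,5-AG and 156 and 154 FPKM in control (0.44, SE 0.033, limma adjusted p = 0.0209), the opposite direction to the lysozyme genes. Cx3cr1, the receptor of fractalkine, had 94.2 and 92.7 FPKM with 1,5-AG and 112 and 114 FPKM in control (-0.27, SE 0.035, limma adjusted p = 0.0446).

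**Figure D5:**
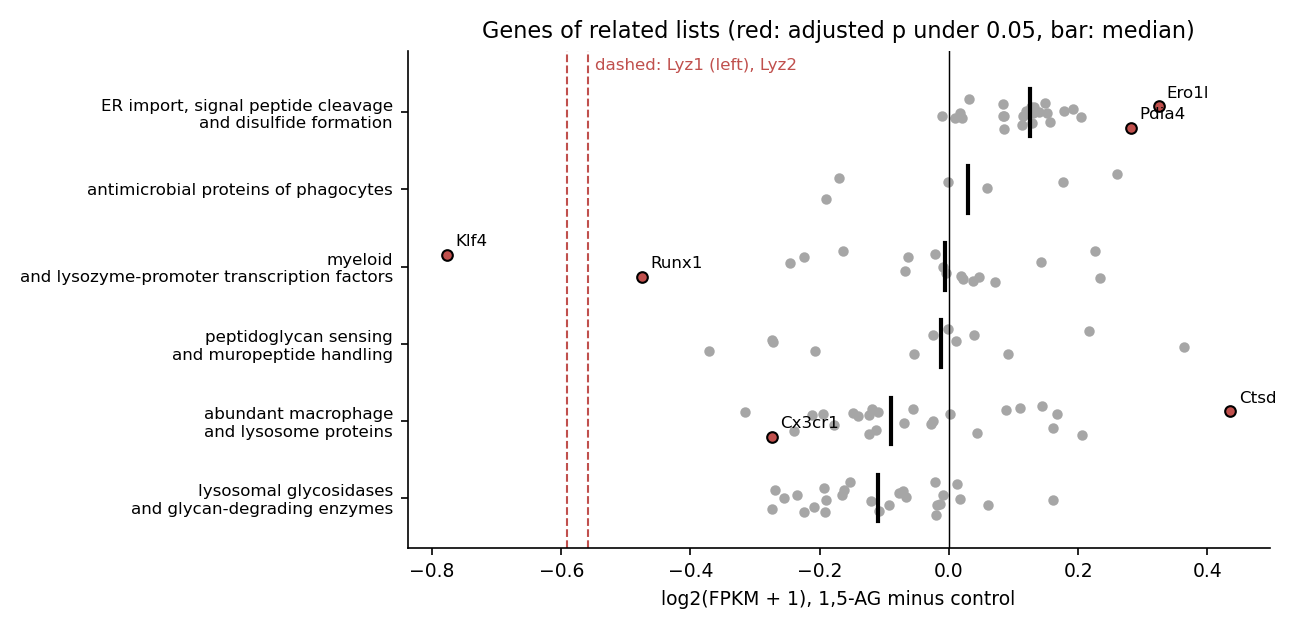
Log2 difference of log2(FPKM + 1), 1,5-AG minus control, of each tested gene in the 6 related lists (points, spread vertically for legibility), with list medians (bars), genes past the adjusted p threshold in red and the values of Lyz1 and Lyz2 as dashed lines. Klf4 lies beyond the dashed lines and Runx1 close to them, the glycan-degrading genes lie mostly below 0 (23 of 27) and the endoplasmic reticulum genes mostly above it (25 of 26).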

How the data were processed

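Messenger RNA of RAW264.7 cells was sequenced in 4 libraries. Per the labels' protocols, RNA was extracted with Trizol and a stranded mRNA kit was used for the libraries. The authors deposited 1 table of FPKM values, with a column per library. The build was mm10 and the tools included HISAT2, HTSeq, Cufflinks and Trimmomatic, per the submitters' processing notes; their roles and versions, the strand setting and the annotation are not stated there. FPKM is relative to library depth and exon length, so a change in abundant genes shifts the rest.

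Of 21523 identifiers, 21508 matched GENCODE M21. FPKM times merged exon length was divided by the value of a fragment, fitted for each library so that small products became whole numbers. This gave whole fragments in all 4 libraries for 99.4% of matched genes (tolerance 0.02 fragments). The fragments summed to 14605854 and 15101812 with 1,5-AG and 15152187 and 16216566 in control. The 10 most abundant genes took 5.63% to 6.12% of them. Libraries of a group were not copies of each other: their fragments gave a chi-square of 2.26 (1,5-AG) and 2.95 (control) for each degree of freedom, where sampling noise alone gives about 1.

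limma 3.58.1 (R 4.3.3) was fitted on log2(FPKM + 1), with a variance trend and group as the only term, to 11120 genes with a mean of at least 1 FPKM. Of rows sharing a symbol the highest was kept, which left out 8. P-values were two-sided and Benjamini-Hochberg adjusted over all tested genes, and 0.05 was the threshold. The differences understate changes of weakly expressed genes. Sequences were aligned with Biopython 1.88. Promoters are from RefSeq (GRCm38.p6), where both genes matched, and coding sequences from GENCODE. Intervals are exact Clopper-Pearson (scipy 1.17.1).

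The named genes are Lyz1, Lyz2, list members past the threshold (or the 2 with the smallest p), the 2 genes ranked next to each on either side, expressed genes within 500 kb and the 5 genes most like Lyz2. The result of 1 gene so named is not reported here. The members and lists were chosen with earlier results of these data known. The fit was repeated with other pseudocounts, filters and scalings, without the variance trend, without each library, with a replicate block and with voom on recovered fragments.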

Additional observations from a re-analysis of the deposited data

How the results depend on the processing

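The log2 difference of Lyz2 (-0.558) and of Lyz1 (-0.591) kept its sign in every alternative run. Leaving out each library in turn gave -0.58 to -0.536 for Lyz2, -0.631 to -0.551 for Lyz1 and -0.0516 to -0.0164 for their log2 ratio. Quantile normalization, which ties the value of a gene at the top of the table to its rank, gave -0.369 for Lyz2, -0.634 for Lyz1 and -0.266 for the ratio, against -0.034 as deposited. The count of genes past the threshold, 162, was 2 to 10 with 1 library left out, where the lone library of a group is assumed to vary like the other group. It was 0 without a filter (limma on 21515 genes, of which 2628 had an unadjusted p under 0.05), 5 without the variance trend, 360 at a mean of at least 5 FPKM and 923 with voom. List members past the threshold, 6, numbered 0 with any library left out, without a filter and without the trend, 10 at a mean of at least 5 FPKM and 36 with voom. The replicate block gave 310 genes and 11 list members. The correlation between the deviations of same-numbered libraries was 0.0124 over all genes, and the labels do not say that numbers mark a shared culture or day. For these shifts the cause was not tested. With 1 library left out, the neighbouring genes that changed sign, none of them past the threshold, ranged from -0.221 to 0.289 (Gm5781), -0.0389 to 0.0169 (Cpsf6), -0.0672 to 0.0087 (Slc35e3), -0.0142 to 0.0551 (Mdm2) and -0.0185 to 0.116 (Yeats4). Gm5781 changed sign also without control replicate 1 (-0.0799). Over all alternatives for the 21 named list and neighbouring genes, 218 values kept sign and side of the threshold, 40 lost their call and 4 gained one. Depth did not limit Lyz1 or Lyz2, with at least 7736 fragments each, but 2 libraries a group limit every comparison.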
